A study of Mus musculus with 24 samples.

Results

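Astrocytes that were frozen directly after their isolation from neonatal and from adult mouse brain were compared gene by gene, without a period in culture between tissue and RNA. The comparison rests on 8 of the 24 RNA-seq libraries of the series, 4 of neonatal astrocytes (neoAC direct) and 4 of adult astrocytes (AdAC direct), and on all autosomal genes, with genes of the X and Y chromosomes left out. Of 45108 autosomal genes in the count table, 18914 had enough counts to be tested. The 4 and 4 are separate isolations of the same strain. P-values rest on the spread within groups, estimated over all 24 libraries in 6 groups rather than over these 8 alone. Both groups were wild-type C57BL/6J mice of mixed sex without treatment, 4 to 8 days old in neoAC direct and 100 to 140 days old in AdAC direct. Each library was 1 isolation from 2 pooled mice. All cells were selected on magnetic columns by ACSA-2, a surface antigen of astrocytes carried by the protein of Atp1b2. Glial progenitors and radial glia can carry this antigen too, which limits both groups as a model of pure astrocytes. The isolations differed in more than age by the study's methods, although the labels name the adult brain kit for both ages. Neonatal cerebral tissue was freed of meninges and dissociated with a kit for neural tissue, and adult brain without olfactory bulb and cerebellum was dissociated with a kit for adult brain that includes removal of debris and of red blood cells. Age, dissection, kit and debris removal therefore cannot be told apart in any difference given here.

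Astrocytes arise from radial glia, divide locally in the early postnatal brain and then take on their adult functions, among them uptake of glutamate and potassium, supply of lipids and metabolites to neurons, and coupling through gap junctions. During the same weeks oligodendrocyte precursors turn into myelinating oligodendrocytes, and the cells lining the ventricles grow motile cilia. RNA of these other cells can enter an astrocyte isolate, so their marker genes were followed beside the astrocyte genes.

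Levels are given in CPM, counts scaled to a common library size with the TMM method of edgeR, which compare 1 gene between libraries but not genes of different length with each other. Library totals lay between 27904126 and 37997368 counts, and 3 counts correspond to 0.0956 CPM in neoAC direct and 0.0932 CPM in AdAC direct, a floor that covers counting error only. A log2 fold change is that of AdAC direct over neoAC direct, with its standard error (SE), and a gene was called when its adjusted p in edgeR's quasi-likelihood test was under 0.05. Of the autosomal genes tested, 6956 (36.8%) were higher and 6563 (34.7%) were lower in AdAC direct, so 71.5% were called in either direction and 5395 genes were not. The 4 neonatal and the 4 adult libraries did not overlap for 12296 genes (65.0%). Among the called genes, 4327 were higher and 3059 lower by more than 2-fold, and 586 were higher and 247 lower by more than 16-fold, while the median log2 fold change over all autosomal genes was 0.0011. Whether counting used strand is not stated, so the counts of genes that overlap another gene on the opposite strand, among them Slc1a2, Grin2c, Tnc, Kcnk1, Hmgcs1 and Dnah10, cannot be separated from it. With so many genes called, a count of a gene list has to be read against these shares. The first principal component of the 8 libraries held 90.95% of the variance and separated the groups, and neoAC direct 4 lay furthest from its own group on the second.

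RNA of other cell types differed between the groups, most of all that of oligodendrocytes, the myelin-forming cells. The 20 oligodendrocyte markers together reached 364 to 435 CPM in the neonatal and 20320 to 21020 CPM in the adult libraries, and all 20 were called higher in AdAC direct with a median log2 fold change of 7.93. Mog, a protein on the outer face of myelin, was at 0.228, 0.498, 0.238 and 0.466 CPM in the neonatal and at 627, 568, 629 and 636 CPM in the adult libraries. The groups were far apart, with a log2 fold change of 10.71 ± 0.36 (SE, edgeR adjusted p = 3.33e-17). Mag, an adhesion protein of myelin, went from 2.17 ± 0.211 to 2387 ± 135 CPM (mean ± SD, n = 4), and Mobp, a structural myelin protein, from 1.29 ± 0.169 to 1558 ± 146 CPM. Sox10, the transcription factor of the oligodendrocyte lineage, was at 2.05, 6.81, 1.597 and 2.13 CPM in the neonatal and between 348 and 464 CPM in the adult libraries. In bulk RNA, fewer cells of a type and less RNA per cell cannot be told apart, here and in all results that follow.

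Genes of the precursor stage did not move as a group. Of 17 tested markers of oligodendrocyte precursors, 5 were higher (29.4%) and 8 lower (47.1%) in AdAC direct, beside 36.8% and 34.7% of all genes. Their summed level was 1397 to 1824 CPM in the neonatal and 1502 to 1752 CPM in the adult libraries. Pdgfra, the growth factor receptor that defines the precursors, was at 15.4, 20.9, 7.95 and 14.9 CPM in the neonatal and between 2.01 and 2.67 CPM in the adult libraries, a log2 fold change of -2.62 ± 0.24 (SE, edgeR adjusted p = 7.51e-10). Cacng4, a subunit of AMPA receptor complexes, fell by 3.54 on the log2 scale from a mean of 190 to 16.3 CPM. Enpp6 and Bcas1, genes of newly formed oligodendrocytes, rose instead, from 0.300 to 63.2 CPM and from 3.42 to 195 CPM. Sox10, given above, also counts in this list, with means of 3.15 and 400 CPM, so the sums hide opposite moves.

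Ependymal cells, the ciliated lining of the ventricles, gave the second list in which every tested member was called higher. Its 20 markers summed to 242 to 398 CPM in the neonatal and 2571 to 2842 CPM in the adult libraries, with a median log2 fold change of 3.08. Of 14 choroid plexus markers, genes of the epithelium that makes cerebrospinal fluid, 5 were higher and 5 lower (35.7% each). These shares lay near the 36.8% and 34.7% of all genes. The markers summed to 635 to 1298 CPM in the neonatal and 156 to 380 CPM in the adult libraries. Ttr, transthyretin, made up most of the neonatal sum and went from a mean of 960.5 to 131.7 CPM. Folr1, a folate receptor of that epithelium, rose from 8.31 to 23.5 CPM. Of 15 fibroblast and meningeal markers 12 fell and none rose, from sums of 282 to 405 CPM to 107 to 124 CPM. Among them, Col1a1, a fibrillar collagen, was at 60.2 ± 13.4 CPM in neoAC direct and 38.2 ± 7.09 CPM in AdAC direct, with overlapping libraries.

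Markers of blood vessels, microglia and blood were uneven among the neonatal libraries, with the highest sums in neoAC direct 2. Endothelial markers summed to 253, 635, 163 and 233 CPM in the neonatal libraries in order of replicate, against 203 to 216 CPM in the adult ones. Cldn5, a tight junction protein of endothelium, was at 33.9, 94.7, 20.4 and 24.6 CPM in neoAC direct and 13.5 to 15.96 CPM in AdAC direct. Of 18 endothelial markers 11 were called lower (61.1%) and 3 higher (16.7%) in AdAC direct, beside 34.7% and 36.8% of all genes. Without neoAC direct 2, 5 were called lower. The call of Pecam1, an endothelial adhesion protein, was lost without that library (log2 fold change -0.92, and -0.31 without it). Ly6c1 and Slco1a4, of the same list, rose from 4.37 to 12.3 CPM and from 7.99 to 13.8 CPM. Cdh5, the cadherin of endothelial junctions, was at 14.0 to 41.9 CPM in the neonatal and 6.26 to 7.42 CPM in the adult libraries. Microglia and macrophage markers summed to 29.4, 144, 37.6 and 53.0 CPM in the neonatal and to 34.1 to 50.6 CPM in the adult libraries. Of 19 such markers 6 were called lower (31.6%) and 2 higher (10.5%), beside 34.7% and 36.8% of all genes. The count of lower ones was 2 without neoAC direct 2 and 3 without AdAC direct 4. P2ry12, a purine receptor of microglia, was one of the 2 called higher, at 0.612 to 2.35 CPM and 3.33 to 4.47 CPM. Hbb-bs, an adult globin of red blood cells that shares sequence with its neighbour, was at 12.2, 38.7, 5.23 and 11.4 CPM in neoAC direct and 0.896 to 1.28 CPM in AdAC direct, the group with a red blood cell removal step. Erythroid markers summed to 9.10 to 67.2 CPM and 2.22 to 3.44 CPM, and leukocyte markers to 1.90 to 2.77 CPM and 2.14 to 3.30 CPM.

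Mural cells of vessels and neurons were followed next. The 15 markers of pericytes and smooth muscle split into 3 higher, 3 lower and 9 not called, and without neoAC direct 2 the count of higher genes was 6. Acta2, the actin of smooth muscle, rose from 6.26 to 69.7 CPM and Vtn, made by pericytes, from 71.4 to 144 CPM, whereas Notch3, a Notch receptor of mural cells, fell from 560 ± 125 to 62.9 ± 7.995 CPM and Rgs5, a signalling regulator of pericytes, from 170 ± 81.6 to 81.9 ± 5.54 CPM. Of 19 neuron markers 2 were higher (10.5%) and 10 lower (52.6%), with sums of 258 to 349 CPM and 213 to 229 CPM. Rbfox3, the neuronal antigen NeuN, was at 1.56 to 2.69 CPM in the neonatal and 0.536 to 0.994 CPM in the adult libraries, and Snap25, a protein of synaptic vesicle release, at 6.25 to 8.98 CPM and 3.80 to 4.96 CPM. Markers of neuroblasts and intermediate progenitors summed to 262 to 304 CPM and 732 to 809 CPM, although 4 of 18 were higher (22.2%) and 7 lower (38.9%). The higher ones were Elavl3, Tubb3, Stmn1 and Cd24a, which are not particular to neuroblasts, and Sox11, a transcription factor of immature neurons, fell by 2.75 on the log2 scale. Dlx2, a transcription factor of interneuron progenitors, was at 2.16 to 5.03 CPM and 1.92 to 2.96 CPM, and its call was lost without any 1 of neoAC direct 2, neoAC direct 3, AdAC direct 1, AdAC direct 2 and AdAC direct 3. The part of these cell types in the astrocyte results was not tested.

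**Figure D1:**
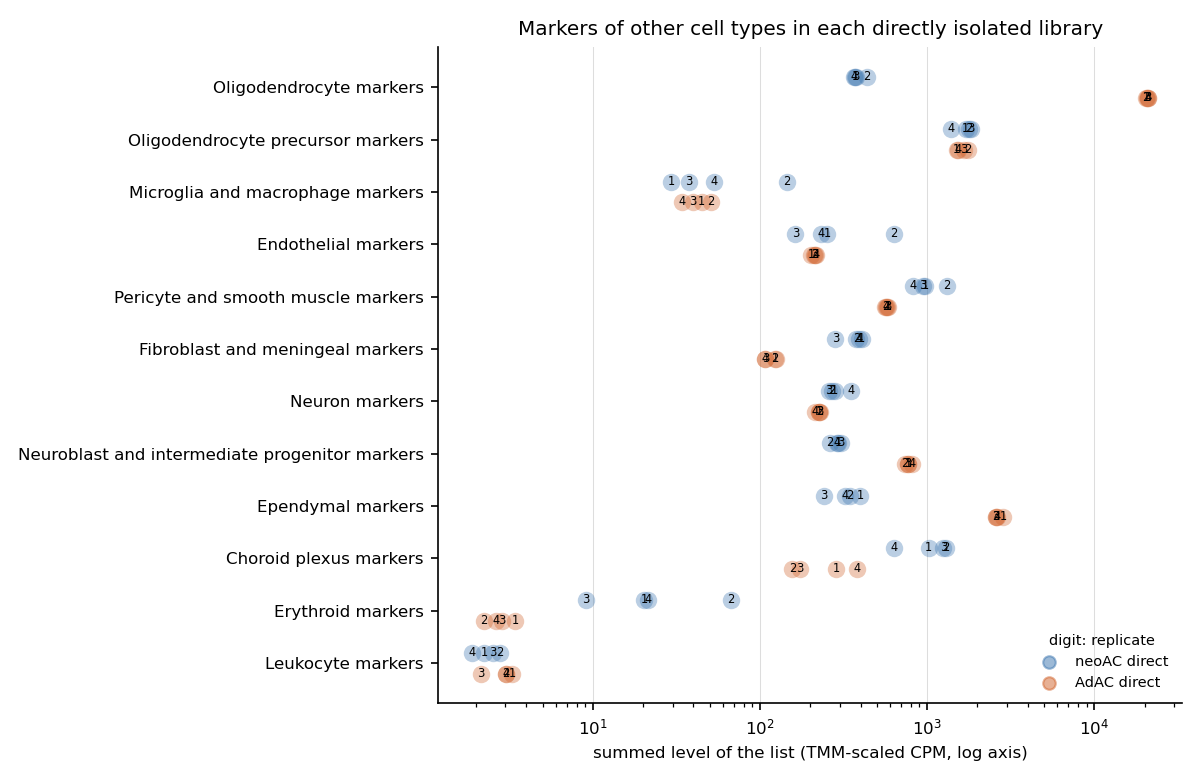
Summed level in CPM, on a log axis, of 12 marker lists of other cell types in the 4 neoAC direct and 4 AdAC direct libraries, where each point is a library and its digit the replicate. Oligodendrocyte markers lie between 364 and 435 CPM in neoAC direct and between 20320 and 21020 CPM in AdAC direct, ependymal markers are higher in every adult library, and neoAC direct 2 has the highest endothelial, microglial and erythroid sums.

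Transporters, channels and junction proteins that define the work of astrocytes moved in both directions. Their shares, 23.1% higher and 34.6% lower, stood beside 36.8% and 34.7% of all genes. Of 26 tested members of that list 6 were higher, 9 lower and 11 not called in AdAC direct, with a median log2 fold change of 0.081, and 9 were higher and 9 lower when the 8 libraries were fitted alone. Slc1a2, the main glutamate transporter GLT-1, was at 5455, 5838, 4934 and 6488 CPM in neoAC direct and 6068, 6106, 5958 and 6277 CPM in AdAC direct. The libraries overlapped, and the log2 fold change was 0.10 ± 0.17 (SE, edgeR adjusted p = 0.598). Gja1, the gap junction protein connexin 43, was at 1196 to 1546 CPM and 1442 to 1538 CPM (log2 fold change 0.13 ± 0.27, edgeR adjusted p = 0.672). Atp1b2, whose product carries the antigen used for selection, was at 1859 ± 127 and 2235 ± 99.0 CPM, with no overlap, an edgeR adjusted p of 0.0927, and a call when libraries were scaled by their size only (edgeR adjusted p = 0.0331) or when the 8 libraries were fitted alone (edgeR adjusted p = 0.0113). Slc1a3, the second glutamate transporter GLAST, was lower in AdAC direct, at 2905 to 3036 CPM against 6229 to 7372 CPM, a log2 fold change of -1.19 ± 0.13 (SE, edgeR adjusted p = 1.84e-08).

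Around these shared levels, single transporters and junction genes exchanged places. Gjb6, connexin 30, which couples mature astrocytes, rose from 20.7, 30.2, 15.8 and 27.1 CPM to 446, 342, 351 and 385 CPM, 16.2-fold. Kcnk1, a potassium leak channel, rose 6.63-fold to 227 ± 15.2 CPM, Slc39a12, a zinc transporter, 1.93-fold to 363 ± 26.1 CPM, and Glul, glutamine synthetase, 1.52-fold from 3633 ± 172 to 5517 ± 82.4 CPM. Glul overlaps another gene on the opposite strand and a second one on its own. Slc4a4, a sodium bicarbonate cotransporter, and Mlc1, a membrane protein of astrocyte endfeet, fell 2.52-fold and 2.35-fold.

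General astrocyte identity genes changed in both directions, 12 higher (35.3%) and 15 lower (44.1%) of 34, beside 36.8% and 34.7% of all genes. Gfap, the intermediate filament of astrocytes, was at 1866, 1727, 1546 and 1749 CPM in neoAC direct and 170, 175, 162 and 161 CPM in AdAC direct, so that the adult level was 10.3-fold lower (log2 fold change -3.37 ± 0.15, edgeR adjusted p = 4.95e-16). Aldh1l1, a folate enzyme used as an astrocyte marker, was at 1014 to 1434 CPM in the neonatal and 238 to 293 CPM in the adult libraries. S100b, a calcium-binding protein that also marks oligodendrocytes, rose from 78.9 ± 11.1 to 259 ± 12.1 CPM. Etnppl, which breaks down phosphoethanolamine, stood near the floor in neoAC direct at 0.0975, 0.277, 0.0679 and 0.133 CPM and at 232, 141, 157 and 189 CPM in AdAC direct. Prodh, proline dehydrogenase, Fam107a, an actin-binding protein, and Itih3, a hyaluronan-binding matrix protein, rose 8.76-fold, 8.39-fold and 7.99-fold. Id3, an inhibitor of differentiation factors, and Ppp1r3c, which directs glycogen synthesis, fell 7.77-fold and 6.01-fold.

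Receptors gave some of the widest exchanges. Of 36 tested, 16 were higher (44.4%) and 12 lower (33.3%) in AdAC direct, beside 36.8% and 34.7% of all genes. Grm5, the metabotropic glutamate receptor mGluR5, was at 266, 253, 267 and 288 CPM in the neonatal libraries and 1.63, 2.44, 1.87 and 2.31 CPM in the adult ones. No library came near the other group, and the difference was 129-fold (log2 fold change -7.01 ± 0.31, edgeR adjusted p = 2.90e-15). Grin2c, an NMDA receptor subunit of adult astrocytes, went the other way, from 38.8, 57.0, 35.2 and 31.9 CPM to 701, 886, 813 and 653 CPM, 18.7-fold. Il17rb, an interleukin receptor, rose from 0.949 to 13.2 CPM and Lpar1, a lysophosphatidic acid receptor also found on oligodendrocytes, from 27.1 to 156 CPM. F2r, the thrombin receptor, fell 9.96-fold and Ednrb, an endothelin receptor, 5.51-fold.

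**Figure D2:**
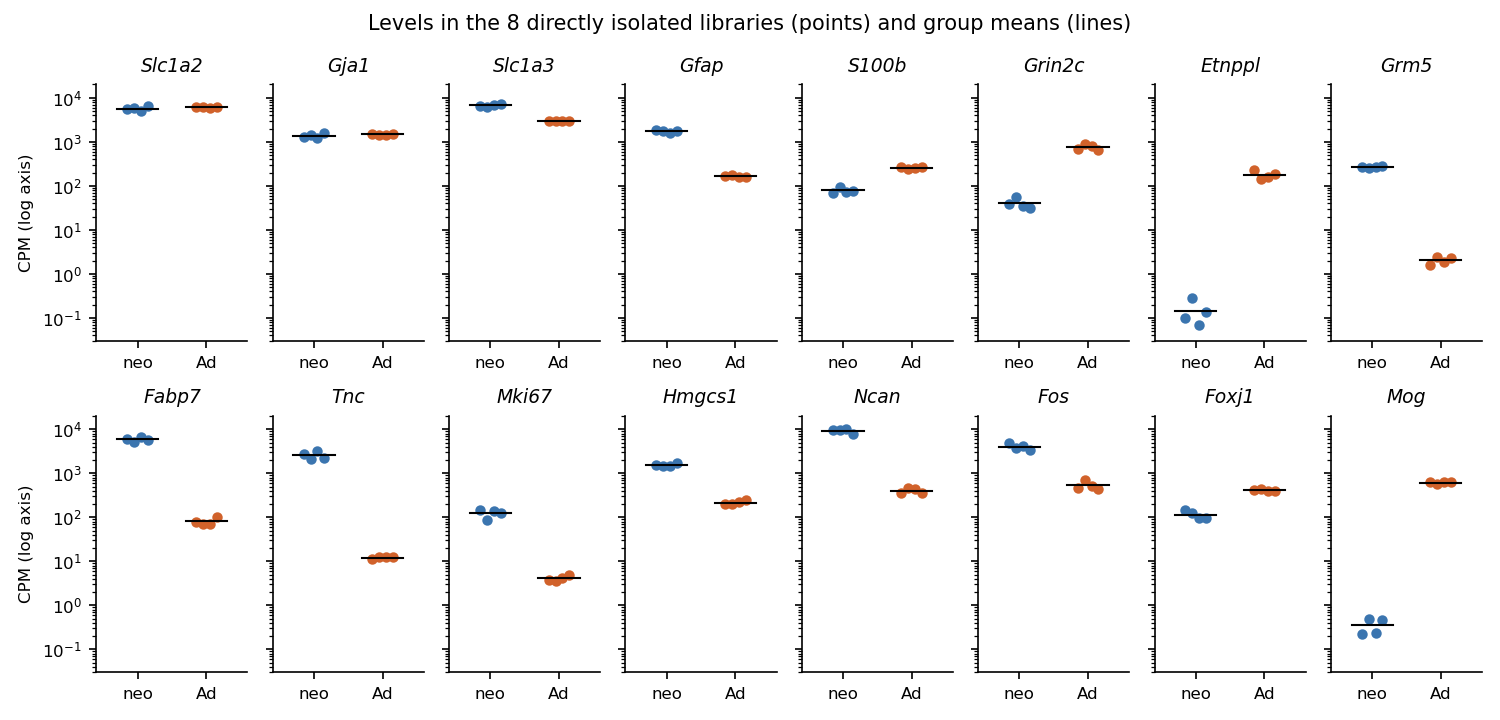
Level in CPM, on a log axis, of 16 genes in each of the 4 neonatal (neo) and 4 adult (Ad) directly isolated libraries, with the group mean as a line. Slc1a2 and Gja1 overlap between the groups, Gfap, Grm5, Fabp7, Tnc, Mki67, Hmgcs1, Ncan and Fos are lower and S100b, Grin2c, Etnppl, Foxj1 and Mog higher in every adult library.

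Genes of neural progenitors and radial glia were lower in the adult cells as a group. Of 35 members 29 fell, 2 rose and 4 were not called, with a median log2 fold change of -1.69, and their summed level went from 36090 to 40970 CPM in the neonatal to 7688 to 8027 CPM in the adult libraries. Fabp7, a fatty acid binding protein of radial glia, was at 6009, 5086, 6686 and 5815 CPM in neoAC direct and 79.7, 70.9, 71.9 and 103 CPM in AdAC direct, 72.5-fold lower (log2 fold change -6.18 ± 0.25, edgeR adjusted p = 1.49e-16). Tnc, the matrix glycoprotein tenascin C, was at 2813, 2104, 3225 and 2189 CPM and at 11.1, 12.3, 12.5 and 12.2 CPM, 214-fold lower. Both genes were abundant in every neonatal library, and their groups did not overlap. Pbk, a mitotic kinase, fell 55.0-fold and Egr2, an immediate early transcription factor of the same list, 12.9-fold. The 2 that rose were Cd24a, a surface glycoprotein, and Cxcr4, a chemokine receptor, from 24.1 to 33.4 CPM, whose call was lost without AdAC direct 1.

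Transcription factors of glia and progenitors followed, with 30 of 50 lower and 12 higher. Sox4 and Myc, factors of progenitor growth, fell 8.72-fold and 7.65-fold, and Id1, an inhibitor of differentiation, 8.59-fold. Zeb2, a zinc finger factor needed for myelination, rose from 104 ± 9.36 to 252 ± 18.4 CPM, beside the rise of the oligodendrocyte markers. Of 17 tested genes for RNA-binding proteins and targets of the let-7 microRNAs, which time development, 10 fell (58.8%) and 6 rose (35.3%). Igf2bp3, a fetal mRNA-binding protein, was at 11.7 to 15.5 CPM in the neonatal and 0.208 to 0.367 CPM in the adult libraries, and Elavl4, an RNA-binding protein of young neurons, fell 6.64-fold. Dicer1, the nuclease that makes microRNAs, rose from 63.2 to 101 CPM.

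Genes of cell division had the lowest median of the lists examined. Of 64 mitosis genes 60 were lower in AdAC direct, with a median log2 fold change of -3.96, and of 51 genes of DNA replication 45 were lower, with a median of -1.70. Mki67, the proliferation antigen, was at 149, 87.1, 142 and 127 CPM in the neonatal and 3.80, 3.52, 4.28 and 4.94 CPM in the adult libraries, a log2 fold change of -4.93 ± 0.18 (SE, edgeR adjusted p = 1.45e-17). Top2a, the topoisomerase of dividing cells, went from 133 ± 26.7 to 4.05 ± 0.299 CPM, and Cdk1, the kinase that starts mitosis, from 41.4 ± 9.13 to 0.776 ± 0.0874 CPM. For each of the 3 genes neoAC direct 2 had the lowest neonatal level, still far above every adult library. Prc1 and Ube2c, of the spindle midzone and of cyclin destruction, fell 37.8-fold and 36.8-fold, and Bub1, of the spindle checkpoint, 35.4-fold.

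Replication genes fell less. Tk1, thymidine kinase, went from 16.5 to 0.621 CPM, E2f8, a cell cycle repressor, from 11.4 to 0.651 CPM, Rrm2, a subunit of ribonucleotide reductase, from 63.0 to 5.69 CPM, and Dbf4, which activates origins, from 15.3 to 2.07 CPM. The mitosis genes that rose were Anln and Pttg1. Anln, a cytokinesis scaffold that is also a gene of myelinating oligodendrocytes, went from 19.3, 15.2, 20.1 and 18.6 CPM to 414, 340, 366 and 453 CPM, in the same libraries as the oligodendrocyte markers. Rfc2, a clamp loader subunit, rose 1.26-fold, and Chaf1a, of chromatin assembly, differed by 0.31 on the log2 scale with overlapping libraries and a call that was lost without any 1 of neoAC direct 2, neoAC direct 4, AdAC direct 1, AdAC direct 2 and AdAC direct 3. Genes that stop the cycle did not rise as a list, with 12 of 20 lower and 2 higher. Btg2, an antiproliferative immediate early gene, fell 15.6-fold from 786 to 50.3 CPM and Cdkn2c, an inhibitor of cyclin D kinases, 8.24-fold, and Rbl2, a pocket protein of resting cells, rose 1.21-fold. Ccng1, the other gene called higher, differed by 0.23 on the log2 scale and lost its call without any 1 of neoAC direct 1, neoAC direct 2, neoAC direct 3, AdAC direct 1 and AdAC direct 4.

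Promoters of the division genes were searched for short sequence elements, whose shares differed between the mitosis and the replication list. RefSeq promoters on GRCm38.p6, from 250 bases before to 50 bases after the start of transcription, were matched by symbol to 12648 of the tested genes, and 6 motifs were searched on both strands. TTTGAA, the core of the cell cycle homology region at which repressor and activator complexes of mitotic genes are known to bind, was in 34 of 54 promoters of mitosis genes (63.0%), in 8 of 40 of replication genes and in 14.6% of all promoters. CCAAT was in 72.2% of mitosis promoters and 42.0% of all. TTTCGCGC, a site of E2F factors, was in 7 of 40 replication promoters (17.5%), 1 of 54 mitosis promoters (1.85%) and 0.64% of all. Over all genes, TTTGAA was in 14.4% of promoters of genes higher and 14.6% of genes lower in AdAC direct. Windows of 60 bases show the place of the element in 4 mitosis genes, right before the start, and, further upstream, in 2 genes of replication and in Uhrf1, which all fell (Mcm5 from 32.8 to 5.64 CPM and Mcm6 from 44.8 to 14.9 CPM). They were taken from chr10:69352913-69352972 (Cdk1, minus strand), chr7:80294416-80294475 (Prc1, plus), chr2:164769869-164769928 (Ube2c, plus), chr11:99024190-99024249 (Top2a, minus), chr8:75109330-75109389 (Mcm5, plus), chr1:128359778-128359837 (Mcm6, minus) and chr17:56304102-56304161 (Uhrf1, plus), with TTTGAA in the first 4 and TTTCGCGC in the other 3, or their reverse complement, in capitals. The element ended 9, 24, 23 and 17 bases before the start in the mitosis genes and 145, 98 and 177 bases before it in the others. These windows are a selection. Of 6 mitosis genes looked at, Mki67 had its nearest TTTGAA ending 92 bases before the start and Bub1 had none before it, and Rrm2, Tk1 and Mcm3 had no TTTCGCGC there. A match describes letters and is not a bound site.
Cdk1: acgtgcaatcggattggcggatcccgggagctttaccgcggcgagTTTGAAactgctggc
Prc1: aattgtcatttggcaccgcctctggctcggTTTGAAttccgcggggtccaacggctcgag
Ube2c: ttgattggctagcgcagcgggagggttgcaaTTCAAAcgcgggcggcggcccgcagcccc
Top2a: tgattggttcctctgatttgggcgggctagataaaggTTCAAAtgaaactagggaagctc
Mcm5: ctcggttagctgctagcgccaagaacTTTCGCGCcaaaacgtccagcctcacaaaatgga
Mcm6: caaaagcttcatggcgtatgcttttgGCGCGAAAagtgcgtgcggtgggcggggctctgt
Uhrf1: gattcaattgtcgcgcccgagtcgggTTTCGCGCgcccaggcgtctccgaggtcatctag

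Chromatin genes changed in both directions. Of 42 genes of DNA methylation and Polycomb complexes 25 were lower (59.5%) and 12 higher (28.6%), beside 34.7% and 36.8% of all genes. Their median log2 fold change was -0.388. Uhrf1, which guides maintenance methylation behind the replication fork, fell from 58.1 ± 15.5 to 8.92 ± 0.419 CPM and Hmgb2, a DNA-bending protein of dividing cells, from 126 to 21.2 CPM. Ezh1, the Polycomb methyltransferase of resting cells, rose from 18.9 to 22.5 CPM in the neonatal to 84.4 to 89.7 CPM in the adult libraries, 4.21-fold. Cbx7, a Polycomb reader, rose from 13.3 to 18.9 CPM to 134 to 156 CPM (log2 fold change 3.18 ± 0.11, edgeR adjusted p = 5.20e-18). Hdac11, a deacetylase enriched in oligodendrocytes, rose 5.08-fold. Cbx7 and Hdac11 overlap other genes on the opposite strand.

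Extracellular matrix genes made up a large share of the neonatal RNA and fell. Brain matrix proteoglycans and glycoproteins summed to 42200 to 45220 CPM in the neonatal and 12280 to 13630 CPM in the adult libraries, with 29 of 44 members lower, 8 higher and a median log2 fold change of -1.14. Ncan, the proteoglycan neurocan, was at 9730, 9671, 10140 and 7716 CPM in neoAC direct and 354, 470, 434 and 365 CPM in AdAC direct, 22.96-fold lower (log2 fold change -4.52 ± 0.18, edgeR adjusted p = 6.76e-17). Ptprz1, a receptor phosphatase that carries chondroitin sulfate, went from 10790 ± 1297 to 918 ± 59.7 CPM, and its ligand Ptn, pleiotrophin, from 4863 ± 435 to 768 ± 54.5 CPM. Vcan, versican, fell 39.6-fold. Has2, a hyaluronan synthase, was at 42.7, 22.7, 36.9 and 43.0 CPM and at 0.248, 0.185, 0.268 and 0.536 CPM.

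A few matrix genes rose instead. Hapln2, a link protein at nodes of Ranvier made by oligodendrocytes, went from 0.431 ± 0.113 to 460 ± 18.1 CPM, in the same libraries as the myelin genes. Spock3 and Spock1, small proteoglycans, rose from 0.259 to 114 CPM and from 5.67 to 158 CPM. Of 36 collagens and laminins 26 were lower and 3 higher, with a median log2 fold change of -1.34. Col3a1, a collagen of meninges and vessels, fell from 66.8 ± 16.8 to 3.32 ± 0.244 CPM beside the fall of the meningeal markers, and Nid1 and Col12a1, of basement membrane and fibrils, fell 12.97-fold and 10.99-fold. Col11a2, a fibrillar collagen chain, rose from 18.3 to 29.7 CPM to 278 to 448 CPM and Col5a3 from 31.5 to 218 CPM.

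Astrocyte genes for the formation and pruning of synapses, which include secreted signals and receptors for engulfment, fell more often than they rose, 21 of 32 lower and 4 higher. Thbs1, thrombospondin 1, which promotes synapse formation, fell 11.8-fold from 53.8 to 4.56 CPM. Bdnf, a neurotrophin, and Nptx2, a pentraxin that gathers glutamate receptors, were each 12.8-fold lower. Sparcl1, hevin, an abundant synaptogenic protein, differed less, at 7400 to 8121 CPM and 3921 to 4749 CPM. Il33, an alarmin that prompts microglia to engulf synapses and is also made by oligodendrocytes, rose from 33.5 ± 6.16 to 453 ± 46.8 CPM. Gas6 and its receptor Mertk, of the engulfment of synapses and debris, rose 6.08-fold and 3.76-fold.

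Cholesterol synthesis was lower at nearly every step. Of 24 genes 22 fell and 1 rose, with a median log2 fold change of -1.41, and their sum was 6727 to 6959 CPM in the neonatal and 2841 to 3142 CPM in the adult libraries. Hmgcs1, which condenses acetyl groups at the entry of the pathway, was at 1524, 1493, 1464 and 1713 CPM in neoAC direct and 198, 205, 220 and 243 CPM in AdAC direct (log2 fold change -2.84 ± 0.14, edgeR adjusted p = 5.53e-15). Cyp51, a demethylase of lanosterol, fell from 420 ± 41.3 to 78.2 ± 3.31 CPM. The neonatal and adult libraries did not overlap for either enzyme. Srebf1, a regulator of fatty acid more than of sterol synthesis, was the gene that rose, from 502 ± 106 to 722 ± 89.0 CPM. TCACNCCAC, a spelling of the sterol response element, was in 1 of 16 promoters of the list (6.25%), that of Hmgcs1, against 1.48% of all, while CCAAT was in 15 of 16. The promoter stretch with that match, chr13:119690189-119690248 on the plus strand, ends its capitals 128 bases before the start.
Hmgcs1: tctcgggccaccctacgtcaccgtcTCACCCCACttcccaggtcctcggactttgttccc

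Lipid carriers divided into 9 higher (47.4%) and 8 lower (42.1%) of 19, beside 36.8% and 34.7% of all genes. Apod, apolipoprotein D, which is made by oligodendrocytes as well as astrocytes, rose from 25.1 ± 9.27 to 1205 ± 118 CPM. Abcg1, a sterol exporter, rose 10.1-fold and Clu, clusterin, 1.84-fold from 1714 ± 190 to 3150 ± 297 CPM. Apoe, the main lipoprotein of astrocytes, was at 9654, 12730, 11660 and 7165 CPM in neoAC direct and 5723, 6679, 5974 and 4758 CPM in AdAC direct, a log2 fold change of -0.83 ± 0.19 (SE, edgeR adjusted p = 5.06e-04). Abca1, the exporter that loads Apoe, and Scarb1, a lipoprotein receptor, fell 2.79-fold and 2.69-fold, and Lpl, lipoprotein lipase, from 10.2 to 1.47 CPM.

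Genes of energy metabolism differed by pathway. Of 33 fatty acid oxidation genes 25 fell and 3 rose, with a median log2 fold change of -0.83. Fabp5, a fatty acid carrier, and Acot1, an acyl-CoA thioesterase, fell 5.62-fold and 5.37-fold, and Acadl, a dehydrogenase of long acyl chains, 2.56-fold, whereas Acsl1 and Acsl3, which activate fatty acids, rose from 6.44 to 80.6 CPM and from 152 to 652 CPM. Among 37 genes of glycolysis, lactate and glycogen 14 fell (37.8%) and 9 rose (24.3%), beside 34.7% and 36.8% of all genes. Ldha, which makes lactate, fell from 330 to 86.4 CPM, Hk2, a hexokinase of growing cells, from 20.02 to 4.10 CPM and Pcx, pyruvate carboxylase, from 614 to 184 CPM. Slc2a1, the glucose transporter GLUT1, rose from 96.8 to 159 CPM to 500 to 532 CPM. Pygm, a glycogen phosphorylase, Pfkp, a phosphofructokinase, and Slc16a7, a monocarboxylate transporter, rose 7.88-fold, 6.83-fold and 12.3-fold. Of 33 genes for amino acids and one-carbon units 21 fell (63.6%) and 9 rose (27.3%), beside 34.7% and 36.8% of all genes. Glud1, glutamate dehydrogenase, fell from 2320 ± 86.9 to 539 ± 18.5 CPM, and Gcsh, of glycine cleavage, 4.31-fold. Bcat1, a transaminase of branched amino acids, rose from 6.78 to 38.6 CPM and Aass, of lysine breakdown, from 3.73 to 20.6 CPM.

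Nearly all genes of ribosomal proteins, and most of the respiratory chain, were lower. Of 77 tested cytosolic ribosomal protein genes 76 were lower, with a median log2 fold change of -0.98 and a sum of 13940 to 18040 CPM against 7656 to 8536 CPM. Rps12 fell from 258 ± 31.1 to 83.4 ± 3.87 CPM and Rps19 from 212 ± 37.6 to 74.4 ± 6.78 CPM. The exception, Rpl3l, is a muscle form that went from 0.173 to 1.10 CPM. These genes have many processed pseudogenes of near-identical sequence, and how reads that fit several copies were counted is not stated, so their levels are uncertain. Of 76 nuclear genes of the respiratory chain and ATP synthase 61 fell and 1 rose, with a median of -0.46, with Cox6b1, a subunit of cytochrome oxidase, 2.55-fold lower. Ndufb10, of complex I, was the 1 that rose, 1.28-fold, and 3 were called higher without neoAC direct 2 or neoAC direct 3 and 2 without neoAC direct 4 or AdAC direct 4.

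Motile cilium genes rose together. Of 65 tested genes of the axoneme, the microtubule core of a beating cilium, 63 were higher, 0 lower and 2 not called in AdAC direct, with a median log2 fold change of 2.83. Their sum was 691 to 1075 CPM in the neonatal and 6310 to 6925 CPM in the adult libraries, which are also those with the higher ependymal markers. The lists share members such as Ak7, and the part of ependymal RNA was not tested. Dnah3, a dynein heavy chain of the axoneme, was at 8.61, 9.997, 4.62 and 8.38 CPM in neoAC direct and 170, 152, 155 and 176 CPM in AdAC direct (log2 fold change 4.36 ± 0.18, edgeR adjusted p = 2.49e-16). Iqca, an axonemal ATPase, rose 18.9-fold, Dnah10, another dynein heavy chain, 16.9-fold, and Cfap157, of the basal body, 15.6-fold. The adult libraries lay close together for these genes and never met the neonatal ones.

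Genes that mark ependymal cells themselves behaved alike. Sntn, a protein of cilium tips, was at 0.325, 0.443, 0.306 and 0.732 CPM in the neonatal and 28.0, 21.7, 24.3 and 34.1 CPM in the adult libraries, 59.4-fold higher. Ccdc153, a coiled-coil protein, and Tmem212, a membrane protein of ependyma, rose 21.0-fold and 20.1-fold, and Ak7, an adenylate kinase of cilia, 13.9-fold. Transport along the cilium, which primary cilia use too, moved less, with 42 of 50 genes of intraflagellar transport and the BBSome higher, 2 lower and a median log2 fold change of 0.71. Ift88, a core transport protein, rose from 13.1 ± 1.93 to 51.9 ± 5.11 CPM.

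Regulators of the multiciliated state divided, with 7 of 21 higher (33.3%) and 10 lower (47.6%), beside 36.8% and 34.7% of all genes. Foxj1, the master transcription factor of motile cilia, was at 144, 124, 97.6 and 94.2 CPM in neoAC direct and 427, 438, 396 and 402 CPM in AdAC direct (log2 fold change 1.86 ± 0.15, edgeR adjusted p = 4.12e-11). Ccdc78, of the structures that assemble basal bodies, rose 31.6-fold to 44.6 CPM and Myb, a factor of early multiciliated cells, 3.77-fold. Ccno, a cyclin needed to multiply basal bodies, fell from 14.6 ± 2.56 to 1.90 ± 0.319 CPM, and Mcidas and Deup1, which act at the same early step, from 3.65 to 0.0296 CPM and from 15.3 to 9.55 CPM.

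GTTGCC, a part of the X-box that RFX factors of ciliated cells read, was in 21 of 50 promoters of axoneme genes (42.0%) and 10 of 16 of ependymal markers (62.5%), against 1902 of the 12648 promoters. It was in 16.9% of promoters of genes higher and 13.1% of genes lower in AdAC direct. Promoters of 4 genes that rose are shown with this element in capitals, taken from chr14:13670783-13670842 (Sntn, plus), chr9:44240498-44240557 (Ccdc153, plus), chr1:90153504-90153563 (Iqca, minus) and chr5:124725025-124725084 (Dnah10, plus). It ended 60, 146, 94 and 14 bases before the start, while Tmem212 and Ak7 had no match there.
Sntn: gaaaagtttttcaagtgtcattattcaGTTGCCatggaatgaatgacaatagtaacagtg
Ccdc153: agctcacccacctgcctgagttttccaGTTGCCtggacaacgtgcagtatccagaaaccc
Iqca: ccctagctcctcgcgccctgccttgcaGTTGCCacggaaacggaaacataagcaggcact
Dnah10: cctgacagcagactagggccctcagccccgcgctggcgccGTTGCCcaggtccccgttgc

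Immediate early genes, which cells switch on within minutes of a stimulus, were lower in the adult cells. Of 44 immediate early and heat shock genes 34 fell and 3 rose, with a median log2 fold change of -2.94 and sums of 15140 to 20540 CPM and 4761 to 5475 CPM. Fos, a subunit of AP-1, was at 4767, 3837, 4185 and 3429 CPM in neoAC direct and 468, 698, 511 and 437 CPM in AdAC direct (log2 fold change -2.94 ± 0.33, edgeR adjusted p = 6.19e-08). The groups did not overlap, and Fos was at 437 CPM or more in every library. Nr4a1 and Nr4a2, orphan nuclear receptors, fell 19.8-fold and 24.3-fold, Dusp5, a phosphatase of ERK, 56.0-fold and Socs3, a brake on cytokine signalling, 30.04-fold. The genes that rose were chaperones. Hsp90aa1 went from 375 ± 51.0 to 1119 ± 91.8 CPM and Hsph1 from 62.1 to 234 CPM, whereas Hspa1b, at 13.8 to 44.1 CPM and 30.3 to 56.2 CPM, overlapped and lost its call without any 1 of neoAC direct 1, neoAC direct 3, neoAC direct 4 and AdAC direct 3. Tissue dissociation is known to induce such genes, and the groups were dissociated with different kits by the study's methods, in which case age and kit cannot be told apart.

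Reactive astrocyte genes, known from injured and inflamed brain, fell more often than they rose. Of 30 tested, 17 were lower (56.7%) and 8 higher (26.7%), beside 34.7% and 36.8% of all genes. Ptx3, a pentraxin, was at 54.8, 40.8, 49.5 and 47.1 CPM in the neonatal and 0.390, 0.865, 0.594 and 0.592 CPM in the adult libraries, 77.6-fold lower. B3gnt5, a glycosyltransferase, fell 43.2-fold and Serpina3n, a protease inhibitor, 4.34-fold. Tm4sf1 and Cd109, surface proteins, rose from 19.6 to 156 CPM and from 7.69 to 53.2 CPM. Genes of antigen presentation, complement and the interferon response went up instead, 24 of 44 higher (54.5%) and 7 lower (15.9%), with a median log2 fold change of 1.00. C3, the central complement component, was at 1.17, 1.30, 1.43 and 1.26 CPM in neoAC direct and 37.7, 40.1, 43.7 and 35.01 CPM in AdAC direct (log2 fold change 4.92 ± 0.36, edgeR adjusted p = 2.72e-11). Ifit3 and Ifi27, induced by interferon, rose 11.02-fold and 6.47-fold and Cd55, which restrains complement, 9.74-fold, while Irf1, a transcription factor of the interferon response, fell 5.38-fold. Mx1, an antiviral GTPase, was at 0.0975 to 0.1996 CPM and 0.154 to 0.743 CPM and was not called (edgeR adjusted p = 0.217). Microglia make C3 too, their markers summed to 29.4 to 144 CPM and 34.1 to 50.6 CPM, and their part was not tested.

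Genes of the circadian clock differed, and the hour of isolation is not given in the sources used here. Of 26 clock genes 16 were higher (61.5%) and 8 lower (30.8%), beside 36.8% and 34.7% of all genes. Nr1d1, the repressor REV-ERB alpha, rose from 86.6 ± 10.2 to 319 ± 23.3 CPM, and Dbp, an output activator, from 61.9 ± 10.3 to 228 ± 32.4 CPM. Npas2 and Per2, of the activating and the repressing arm, rose 4.15-fold and 2.71-fold. Arntl, the activator BMAL1, fell from 68.7 ± 2.96 to 35.6 ± 1.35 CPM and Bhlhe40, a repressor, 3.40-fold. CACGTG, the E-box the clock activators read, was in 5 of 22 clock promoters (22.7%) and 10.7% of all.

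Hormone response genes rose in 11 of 24 cases (45.8%) and fell in 5 (20.8%), beside 36.8% and 34.7% of all genes. Their median log2 fold change was 0.071. Hr, a corepressor induced by thyroid hormone, went from 15.2 ± 3.44 to 144 ± 12.9 CPM and Zbtb16, induced by glucocorticoids, from 2.38 to 24.6 CPM. Plin4, a lipid droplet protein also known in oligodendrocytes, was at 0.544 to 0.803 CPM and at 173, 53.5, 81.3 and 91.0 CPM. Angptl4, an inhibitor of lipases, fell 7.19-fold, and Dio2, which activates thyroid hormone, from 395 ± 60.4 to 165 ± 11.6 CPM.

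Imprinted genes of growth divided evenly, 11 of 25 higher and 11 lower (44.0% each), beside 36.8% and 34.7% of all genes. H19, a fetal noncoding RNA, was at 61.8, 55.1, 42.8 and 50.1 CPM in the neonatal and 0.248, 0.124, 0.149 and 0.169 CPM in the adult libraries, 302-fold lower (log2 fold change -8.24 ± 0.37, edgeR adjusted p = 2.92e-15). Igf2, the growth factor beside it, which meninges and choroid plexus make in brain, fell 8.91-fold, Mest 8.96-fold and Grb10, an adaptor that restrains insulin signalling, 7.74-fold. Zim1, a zinc finger gene, rose 6.29-fold and Nnat, a membrane protein of developing brain, 1.63-fold. H19 and Igf2 overlap other annotated genes on both strands.

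Genes that mark the position of a cell in the brain bear on the dissections. Of 18 telencephalic genes 12 fell and 0 rose, and 1 was called higher without AdAC direct 1. Lhx2 fell 2.17-fold, Emx2 2.95-fold and Lef1, of the hippocampal field, 3.17-fold. Of 35 genes of diencephalon, midbrain and hindbrain 5 rose (14.3%) and 11 fell (31.4%), beside 36.8% and 34.7% of all genes. Their sum was 207.2 to 256.5 CPM in the neonatal and 119.3 to 143.2 CPM in the adult libraries. Egr2, the immediate early gene given above, counts in this list, with means of 124 and 9.63 CPM. Irx1 fell from 12.15 to 5.33 CPM, and Irx3 rose from 9.41 to 14.3 CPM. En2, of midbrain and cerebellum, was at 0.532 to 1.20 CPM in neoAC direct, taken from cerebral tissue, and 13.1 to 15.2 CPM in AdAC direct, taken from whole brain without olfactory bulb and cerebellum. Age and dissection cannot be told apart in these genes. Lysosome genes, a list without a regional meaning, were 17 of 40 higher and 14 lower. These shares lay near the 36.8% and 34.7% of all genes, and the median log2 fold change was 0.041.

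**Figure D3:**
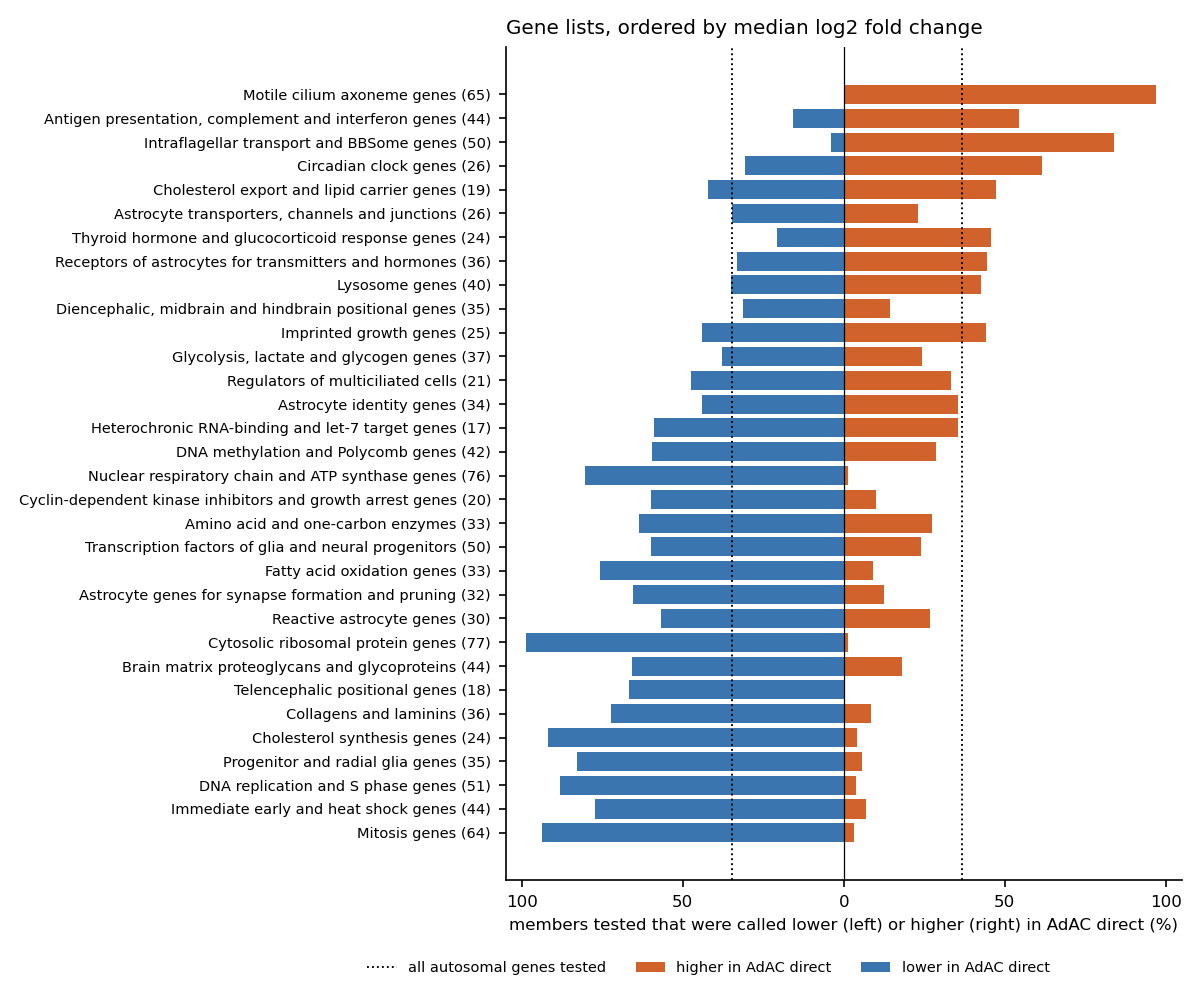
Share of the tested members of each gene list other than the cell type markers, in percent, called lower (left, blue) or higher (right, orange) in AdAC direct, with the number tested in parentheses, lists ordered by median log2 fold change and dotted lines at the shares of all autosomal genes (34.7% and 36.8%). Motile cilium genes (96.9% higher) and mitosis (93.8% lower), cholesterol synthesis (91.7% lower) and ribosomal protein genes (98.7% lower) lie far from those lines.

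Without regard to lists, the protein-coding genes with the widest rise included several genes of myelin. Tmem125, Tnni1 and Nipal4, at 3 counts or fewer in every neonatal library, had means of 87.6, 42.3 and 46.7 CPM in AdAC direct. Opalin, a myelin membrane protein, went from 0.146 to 234 CPM and Fa2h, which makes myelin lipids, from 0.386 to 427 CPM. By amount, Cnp rose from 297 to 3108 CPM, Mal from 8.13 to 2238 CPM, Aplp1 from 204 to 2844 CPM, Fth1, ferritin heavy chain, from 479 to 2695 CPM, Tubb4a from 22.3 to 2123 CPM and Enpp2, autotaxin, from 96.1 to 1668 CPM. Opalin, Fa2h, Cnp, Mal, Aplp1, Fth1, Tubb4a and Enpp2 are known in oligodendrocytes, whose markers rose in the same libraries, and the part of those cells was not tested. The widest falls were in other genes. Kcnj6, a potassium channel, was at 12.2, 8.81, 12.6 and 12.6 CPM in the neonatal and at 0, 0.0309, 0 and 0.0564 CPM in the adult libraries, and Cntnap5b, a neurexin-like adhesion protein, at a mean of 12.8 and 0.0462 CPM. Tfap2c, a transcription factor, went from 11.1 to 0.0895 CPM. Cpe, a peptide-processing enzyme abundant in neonatal astrocytes, fell from 7911 ± 499 to 1925 ± 106 CPM.

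Annotated gene types differed in direction. Of 15031 protein-coding genes 5372 were higher and 5799 lower, with a median log2 fold change of -0.04. Of 702 long intergenic noncoding RNAs 54.1% were higher and 15.1% lower, and of 688 antisense RNAs 57.1% and 9.88%, each with a median near 1.05. Sense intronic transcripts were higher in 69.5% of 59. Of 1139 processed pseudogenes, 8.08% were higher, and the 35.4% that were lower lay near the share of all genes, with a median of -0.65, next to the fall of the ribosomal protein genes from which many of them derive. Reads of pseudogenes and parents, and of antisense genes and their partners, cannot be told apart without the counting setting.

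**Figure D4:**
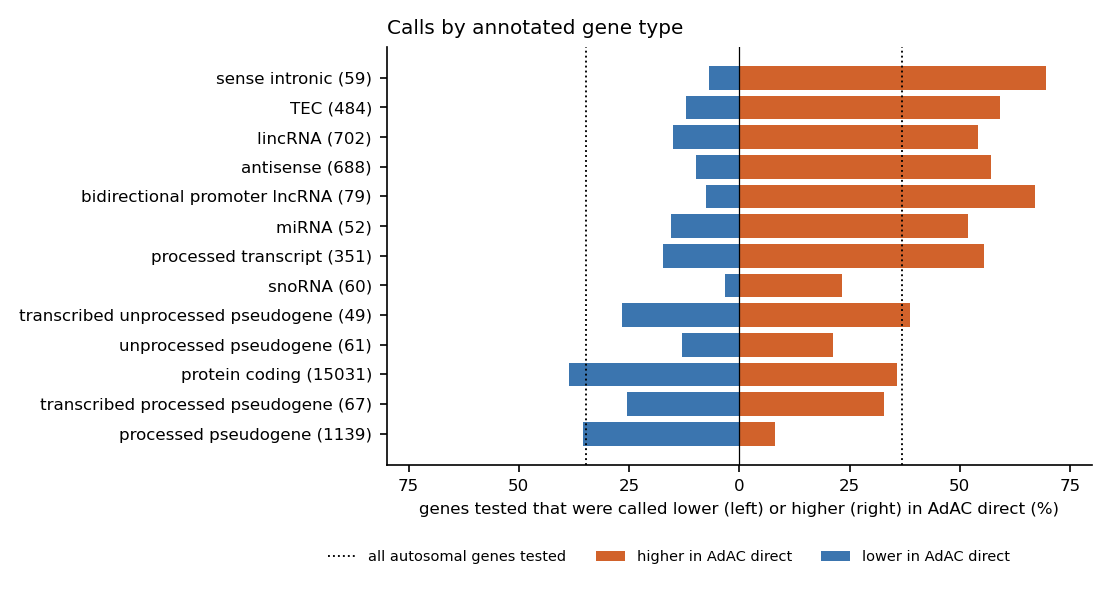
Share of tested autosomal genes of each annotated type, in percent, called lower (left, blue) or higher (right, orange) in AdAC direct, with the number tested in parentheses and dotted lines at the shares of all autosomal genes. Noncoding types lean to the right, with 57.1% of antisense RNAs higher, whereas few processed pseudogenes were higher (8.08%) and 35.4% lower, near the 34.7% of all genes.

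The age difference was not the same once cells had been cultured. The series holds 4 neonatal and 4 adult libraries of cells also selected by ACSA-2 and then grown in culture (neoAC CellC and AdAC CellC). The age difference of directly isolated cells differed from that of cultured cells in an interaction test for 13014 autosomal genes (68.8%). The study names the removal of olfactory bulb and cerebellum for direct isolation and does not state it for cultured cells. If it was left out there, culture and dissection cannot be told apart in the interaction. Of 9041 genes called in both settings, 2472 were higher and 1960 lower in adult cells in both, while 2223 were higher directly and lower in culture and 2386 the reverse. Motile cilium genes had a median log2 fold change of 2.83 directly and -2.15 in culture, and 64 of 65 were called in the interaction. Foxj1 was at 1241 ± 121 CPM in cultured neonatal and 209 ± 36.4 CPM in cultured adult cells (n = 4 each), an interaction of 4.43 ± 0.21 on the log2 scale (SE, edgeR adjusted p = 3.67e-15). Mitosis genes had medians of -3.96 and 0.175, ribosomal protein genes -0.98 and 0.955, and cholesterol synthesis genes -1.41 and 0.697.

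Single genes differed in what culture changed. Slc1a2, at 5679 and 6102 CPM directly after isolation, was at 542 ± 47.5 CPM in cultured neonatal and 49.95 ± 3.15 CPM in cultured adult cells, an interaction of 3.54 ± 0.25 (SE, edgeR adjusted p = 4.08e-12). Gja1 was at 613 ± 73.2 and 209 ± 13.9 CPM in the cultured groups. Tnc turned round, at 386 ± 60.4 CPM in cultured neonatal and 1296 ± 161 CPM in cultured adult cells, an interaction of -9.49 ± 0.38 (SE, edgeR adjusted p = 6.845e-16). Mog kept its direction, at 0.812 ± 0.343 and 116 ± 45.1 CPM in culture, and oligodendrocyte markers had a median log2 fold change of 5.93 there. In culture the medians were also 3.07 for microglia, 2.82 for endothelial and -2.21 for ependymal markers. They were -2.33 for astrocyte transporters and for astrocyte identity genes. The part of other cell types in the interactions was not tested. Glul did not pass the interaction test (0.01 ± 0.17, edgeR adjusted p = 0.95).

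**Figure D5:**
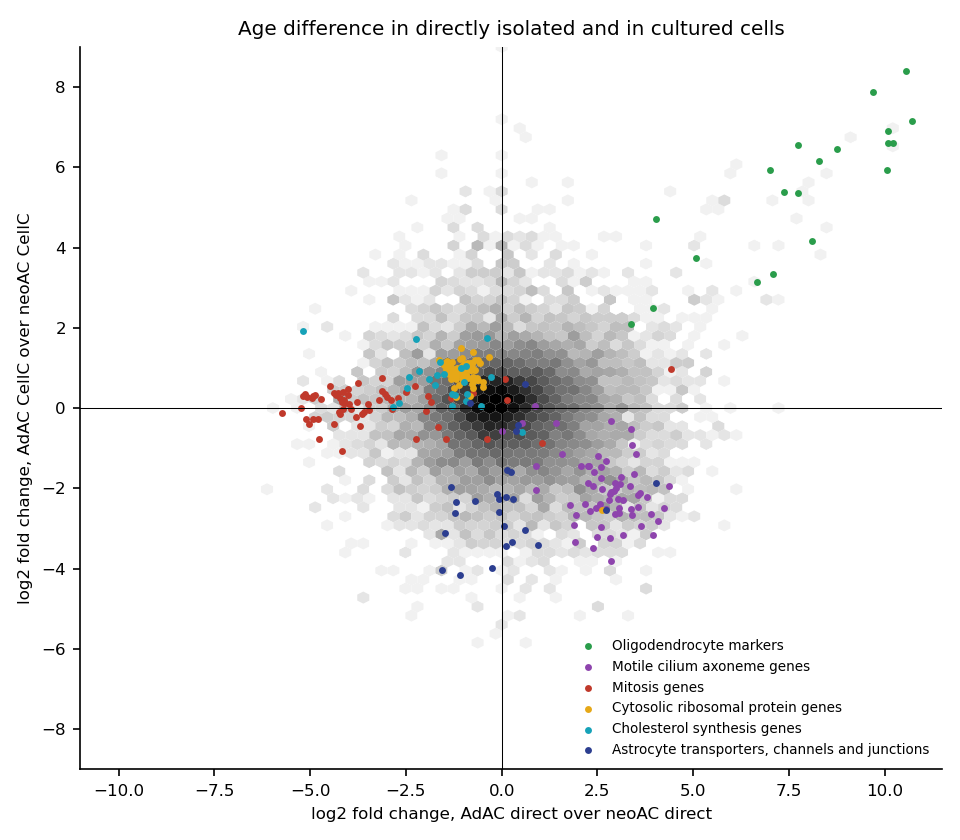
Log2 fold change of adult over neonatal cells directly after isolation (horizontal) and after culture (vertical) for every tested autosomal gene (grey, darker where genes are dense) and for members of 6 lists (colours). Oligodendrocyte markers lie high on both axes, motile cilium genes to the right and mostly below 0, and mitosis genes to the left near 0 in culture.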

How the data were processed

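RNA of 8 directly isolated astrocyte samples was sequenced by the authors from stranded, poly(A)-selected libraries, as part of a series of 24 libraries in 6 groups. The deposited values are raw read counts per gene, which the authors made with STAR 2.7.3a on GRCm38, keeping reads with up to 20 alignments, and featureCounts on exons of a Gencode annotation. Whether strand was used is not given in the sources used here. Per library, 27904126 to 37997368 counts were deposited, and intervals and floors cover counting error only.

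From these counts, 1 fit of the 6 groups was made with edgeR 4.0.16 in R 4.3.3, with TMM scaling, filterByExpr (19691 genes kept) and the robust quasi-likelihood test, two-sided, with Benjamini-Hochberg adjustment over all genes kept and a threshold of 0.05. Calls were then counted among 18914 autosomal genes. Each SE was obtained as the absolute log2 fold change over the root of the F statistic. DESeq2 1.42.0, other scalings, filters and sample choices were run as alternatives. The fitting was tested on simulated data. RefSeq promoters carried the build GRCm38.p6. Tables and plots were made with pandas and matplotlib.

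Named genes were, among called protein-coding genes with non-overlapping groups and 10 CPM or more on average in 1 of them, the 12 highest and 12 lowest log2 fold changes and the 10 largest changes in mean CPM each way. To these came up to 4 called members per list and direction with the same minimum level, and genes that define a list, whatever their values. The text gives a selection of them, and some single genes are left unreported. Mcidas, Deup1, Rpl3l, Mcm5 and Mcm6 were chosen after their values were seen. Members and lists were chosen with earlier results of these data known.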

Additional observations from a re-analysis of the deposited data

Results flagged for a closer look

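The age difference in directly isolated cells differed from that in cultured cells for 13014 autosomal genes by the interaction test of edgeR at an adjusted p under 0.05. Among 512 groups of 4 values (256 levels, lists and shares in each of the 2 groups), 24 held a library that stood apart by Dixon's 95% criterion, and chance alone gives about 1 in 20.

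Lists stood apart in 5 cases. In AdAC direct 3 the antigen presentation, complement and interferon genes summed to 1072 CPM against 977.1 to 980.5 CPM in the other adult libraries. The oligodendrocyte markers in neoAC direct 2 summed to 434.8 CPM against 364.1 to 374.4 CPM, and Sox10 was at 6.812 CPM there against at most 2.129 CPM. The ependymal markers were highest in AdAC direct 1 at 2842 CPM, the reactive astrocyte genes in neoAC direct 1 at 4272 CPM, and the neuron markers lowest in AdAC direct 4 at 213.3 CPM. The mitochondrial share of neoAC direct 4 was 1.944% against 0.9897% to 1.04%.

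Single genes stood apart as follows. In AdAC direct 4, Irf1 was lowest at 13.68 CPM, Cfap157 at 34.16 CPM, Emx2 at 20.25 CPM and Cdh5 at 6.262 CPM. In AdAC direct 3, Igf2bp3 was lowest at 0.208 CPM and Hspa1b highest at 56.2 CPM. Mog was lowest in AdAC direct 2 at 567.9 CPM. In AdAC direct 1, Slc2a1 was highest at 532.2 CPM and Elavl3 lowest at 259.6 CPM. In neoAC direct 2, Clu was highest at 1998 CPM, and Mest and Kcnj6 lowest at 90.66 and 8.806 CPM. In neoAC direct 4, Slc16a7 was highest at 1.83 CPM, Mertk at 82 CPM and Snap25 at 8.982 CPM. Ccno was highest in neoAC direct 1 at 18.37 CPM, and Igf2 lowest in neoAC direct 3 at 171.4 CPM.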

How the results depend on the processing

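Requiring a change over 2-fold left 7386 genes called between AdAC direct and neoAC direct (4327 higher, 3059 lower) and 8524 in the interaction, of which 3879 were lower. The other settings run for each of them (16 by age, 13 for the interaction) kept the counts of called genes within 1.5 times. Leaving out 1 library at a time gave 13034 to 13525 genes by age (6702 to 7018 higher, 6266 to 6507 lower) and 12751 to 13174 in the interaction (6198 to 6469 higher, 6528 to 6705 lower). Scaling by library size only moved the median log2 fold change over all autosomal genes to 0.070 by age, and that of the interaction from -0.041 to 0.108. In the interaction, 6330 genes were higher and 6684 lower, and other scalings turned this balance, to 6767 and 6147 with DESeq2 size factors, 7025 and 5814 with library size only, and 6866 and 6281 with DESeq2. No called gene named here changed sign. Of 210 genes examined, 188 could be tested in all 17 settings, of which 166 kept their side of the threshold, another 22 kept it where tested, and 22 changed it. Of 88 list counts 40 stayed within 1.5 times in every setting, and 67 once the 2-fold requirement was set aside. With the 8 libraries alone, 12693 genes were called, and 13273 with the replicate block. The libraries share only a number: deviations of same-numbered libraries correlated at -0.0804, 0.1058, 0.1137 and 0.1683, and AdAC direct 2 correlated best with neoAC direct 3, at 0.1905. With that block 10 of 26 transporters were called higher, against 6, and 6 endothelial markers lower, against 11. Pecam1 was not called and Atp1b2 was (edgeR adjusted p = 0.00754). Levels at or under 3 counts, as of Tmem125 in neonatal libraries, allow only a bound on a fold change at this depth.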
